A study of Homo sapiens with 25 samples.

Results

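The genes described here are the RNase H enzymes, which cut the RNA strand of an RNA-DNA hybrid, and nucleases that clear the resulting fragments. They are 8 genes chosen by name, RNASEH1, RNASEH2A, RNASEH2B, RNASEH2C, XRN1, XRN2, EXOSC10 and DIS3, out of 59427 gene names in the deposited expression table. RNA was sequenced from 2 established human lines, A549 and NCI-H460, both derived from non-small cell lung carcinoma, to compare antisense oligonucleotides (ASOs) directed at a pair of long noncoding RNA candidates with a control ASO. Every library came from cells harvested 24 h after transfection with 25 nM of an ASO, so the controls had been transfected too, with the Qiagen neutral sequence Control A. The groups of each line were candidate 42 ASO3, candidate 42 ASO5, candidate 240 ASO1, candidate 240 ASO3 and the control. A549 had 3 libraries per group, numbered 3, 4 and 5, and NCI-H460 had 2, numbered 1 and 2, which makes 25 libraries. Whether libraries of 1 group were grown as separate cultures is not said in the labels, so p-values measure the spread between these libraries alone, which may be technical.

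An ASO of the RNase H-dependent kind pairs with its target RNA, and RNase H1 cuts the RNA inside that hybrid. The cut leaves a downstream piece with an exposed 5′ end, which XRN2 digests in the nucleus and XRN1 in the cytoplasm, and an upstream piece with an exposed 3′ end, which the RNA exosome digests. RNase H2 is a separate enzyme of 3 subunits that also removes single ribonucleotides from DNA, and the loss of its function causes an inflammatory disease in humans. Whether the ASOs of this study act through RNase H is not stated in the labels.

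The values are transcripts per 1e6 (TPM), which are scaled by gene length, so levels can be compared between genes. Of the 8 genes, 8 passed the filter of a mean of at least 1 TPM in each line. A549 libraries showed 5 of 5 epithelial markers at a mean of at least 1 TPM and NCI-H460 libraries 3 of 5, where EPCAM averaged 0.587 TPM and CDH1 0.102 TPM. Of markers of other cell types, 1 of 5 leukocyte markers averaged at least 1 TPM in each line (CD14, 14.8 TPM in A549 and 17.8 TPM in NCI-H460), 1 of 5 fibroblast markers in A549 (COL1A1) and 3 of 5 in NCI-H460 (COL1A1, COL3A1 and LUM, 2.13 to 3.44 TPM), 1 of 4 alveolar type 2 markers in A549 (NAPSA, 2.59 TPM) and 0 of 4 in NCI-H460, and 0 of 4 endothelial markers in either. CD3E and SFTPA1 were listed at 0 in both lines. The RNA taken as candidate 42, AC107959.3, stood at 8.55% of control in A549 with 42 ASO3, 45% with 42 ASO5, 80.7% with 240 ASO1 and 190% with 240 ASO3. In NCI-H460 it stood at 30.3% of control with 42 ASO3, 95.5% with 42 ASO5, 252% with 240 ASO1 and 340% with 240 ASO3, against control values of only 1.16 and 2.33 TPM. Some libraries stood apart over all genes. In NCI-H460 the first principal component placed the 42 ASO3 libraries at 72.2 and 38.7, against at most 3.06 in the other 8, and in A549 it placed the 240 ASO3 library numbered 3 at 71.9, against at most 20.9 in the other 14. The total mass of the table's columns ran from 924350 to 1179224 TPM, so the deposited values had been rescaled between libraries.

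The genes lie on 7 chromosomes in the hg38 coordinates of the authors' deposited tables. RNASEH1 spans chr2:3541430-3558333 on the minus strand, RNASEH2A chr19:12806584-12813640 on the plus strand, RNASEH2B chr13:50909747-51024120 on the plus strand, and RNASEH2C chr11:65714005-65720818 on the minus strand. XRN1 spans chr3:142306607-142448062 on the minus strand, XRN2 chr20:21303331-21389825 on the plus strand, EXOSC10 chr1:11066618-11099869 on the minus strand, and DIS3 chr13:72752169-72782096 on the minus strand. GENCODE 29 places another gene across part of each locus, among them the antisense gene RNASEH1-AS1, KAT5 at RNASEH2C, HOOK2 at RNASEH2A and BORA and PIBF1 at DIS3. The sources used here do not give the handling of strand, so reads of a gene and of its overlapping partner on the opposite strand cannot be told apart.

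The upstream sequences below belong to XRN2 and XRN1, the 5′-to-3′ nucleases that were lower in NCI-H460 with 42 ASO3, and to RNASEH2A, the gene that was higher there. Each holds 220 bases, from 250 to 31 bases before the start site, credited to RefSeq on GRCh38.p14. Capitals mark the matches to the motifs named below. The XRN2 stretch is chr20:21303081-21303300 on the plus strand, the XRN1 stretch chr3:142448068-142448287 on the minus strand, and the RNASEH2A stretch chr19:12806334-12806553 on the plus strand.
XRN2: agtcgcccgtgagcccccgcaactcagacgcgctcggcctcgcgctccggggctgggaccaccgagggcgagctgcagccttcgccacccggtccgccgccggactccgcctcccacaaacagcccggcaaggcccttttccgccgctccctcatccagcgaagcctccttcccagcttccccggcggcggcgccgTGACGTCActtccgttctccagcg
XRN1: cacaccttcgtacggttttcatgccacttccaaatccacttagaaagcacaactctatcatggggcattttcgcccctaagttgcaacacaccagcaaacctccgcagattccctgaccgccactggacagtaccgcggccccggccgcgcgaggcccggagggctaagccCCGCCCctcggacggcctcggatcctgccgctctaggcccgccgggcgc
RNASEH2A: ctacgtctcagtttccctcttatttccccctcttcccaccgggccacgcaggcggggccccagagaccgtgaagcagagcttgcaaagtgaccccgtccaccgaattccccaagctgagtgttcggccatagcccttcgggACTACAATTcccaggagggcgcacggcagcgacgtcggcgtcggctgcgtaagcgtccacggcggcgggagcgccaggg
The XRN2 stretch held the cAMP response element TGACGTCA, which was present in 1.27% of the same stretch of 35116 promoters. The RNASEH2A stretch held ACTACAATT, part of the motif bound by the zinc finger protein ZNF143, present in 0.29% of them. The XRN1 stretch held the GC box GGGCGG, present in 38.9%. None of the 3 held CCAAT (29.8%), TATAAA (8.08%) or CACGTG (5.4%). Both strands were searched, the motifs do not overlap one another, and they were picked with the sequences in view, so the matches are a description of these letters. GC content was 72.7% in the XRN2 stretch, 63.6% in the XRN1 stretch and 65.5% in the RNASEH2A stretch.

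All 8 genes were expressed in both lines, at levels that differed widely between members. Ranked by the median over the 15 A549 libraries, XRN2 stood highest at 74.3 TPM (58.1 to 80.5), followed by RNASEH2A at 68.3 TPM (50.9 to 88.4) and RNASEH2C at 53.1 TPM (32.4 to 77.2). RNASEH2B at 32.3 TPM (21.1 to 40.8), EXOSC10 at 29.8 TPM (26.3 to 34.0) and RNASEH1 at 29.0 TPM (21.5 to 31.2) lay close together, with ranges that overlapped. DIS3 stood at 15.8 TPM (8.47 to 20.2) and XRN1 last, at 2.44 TPM (1.00 to 6.30). In the 10 NCI-H460 libraries the order by median was RNASEH2A at 97.4 TPM (83.7 to 140.0), RNASEH2C at 77.6 TPM (72.8 to 96.6), XRN2 at 42.8 TPM (29.0 to 47.8), RNASEH2B at 34.9 TPM (30.1 to 41.7), EXOSC10 at 30.5 TPM (27.5 to 34.4), RNASEH1 at 24.2 TPM (18.2 to 28.1), DIS3 at 8.99 TPM (4.53 to 11.0) and XRN1 at 1.67 TPM (0.841 to 2.56). XRN1, the main cytoplasmic 5′-to-3′ nuclease, therefore had the lowest TPM of the set in both lines, at the 18.7 percentile of tested genes in A549 and the 9.69 percentile in NCI-H460, while RNASEH2A lay at the 85.4 and 89.8 percentiles.

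**Figure D1:**
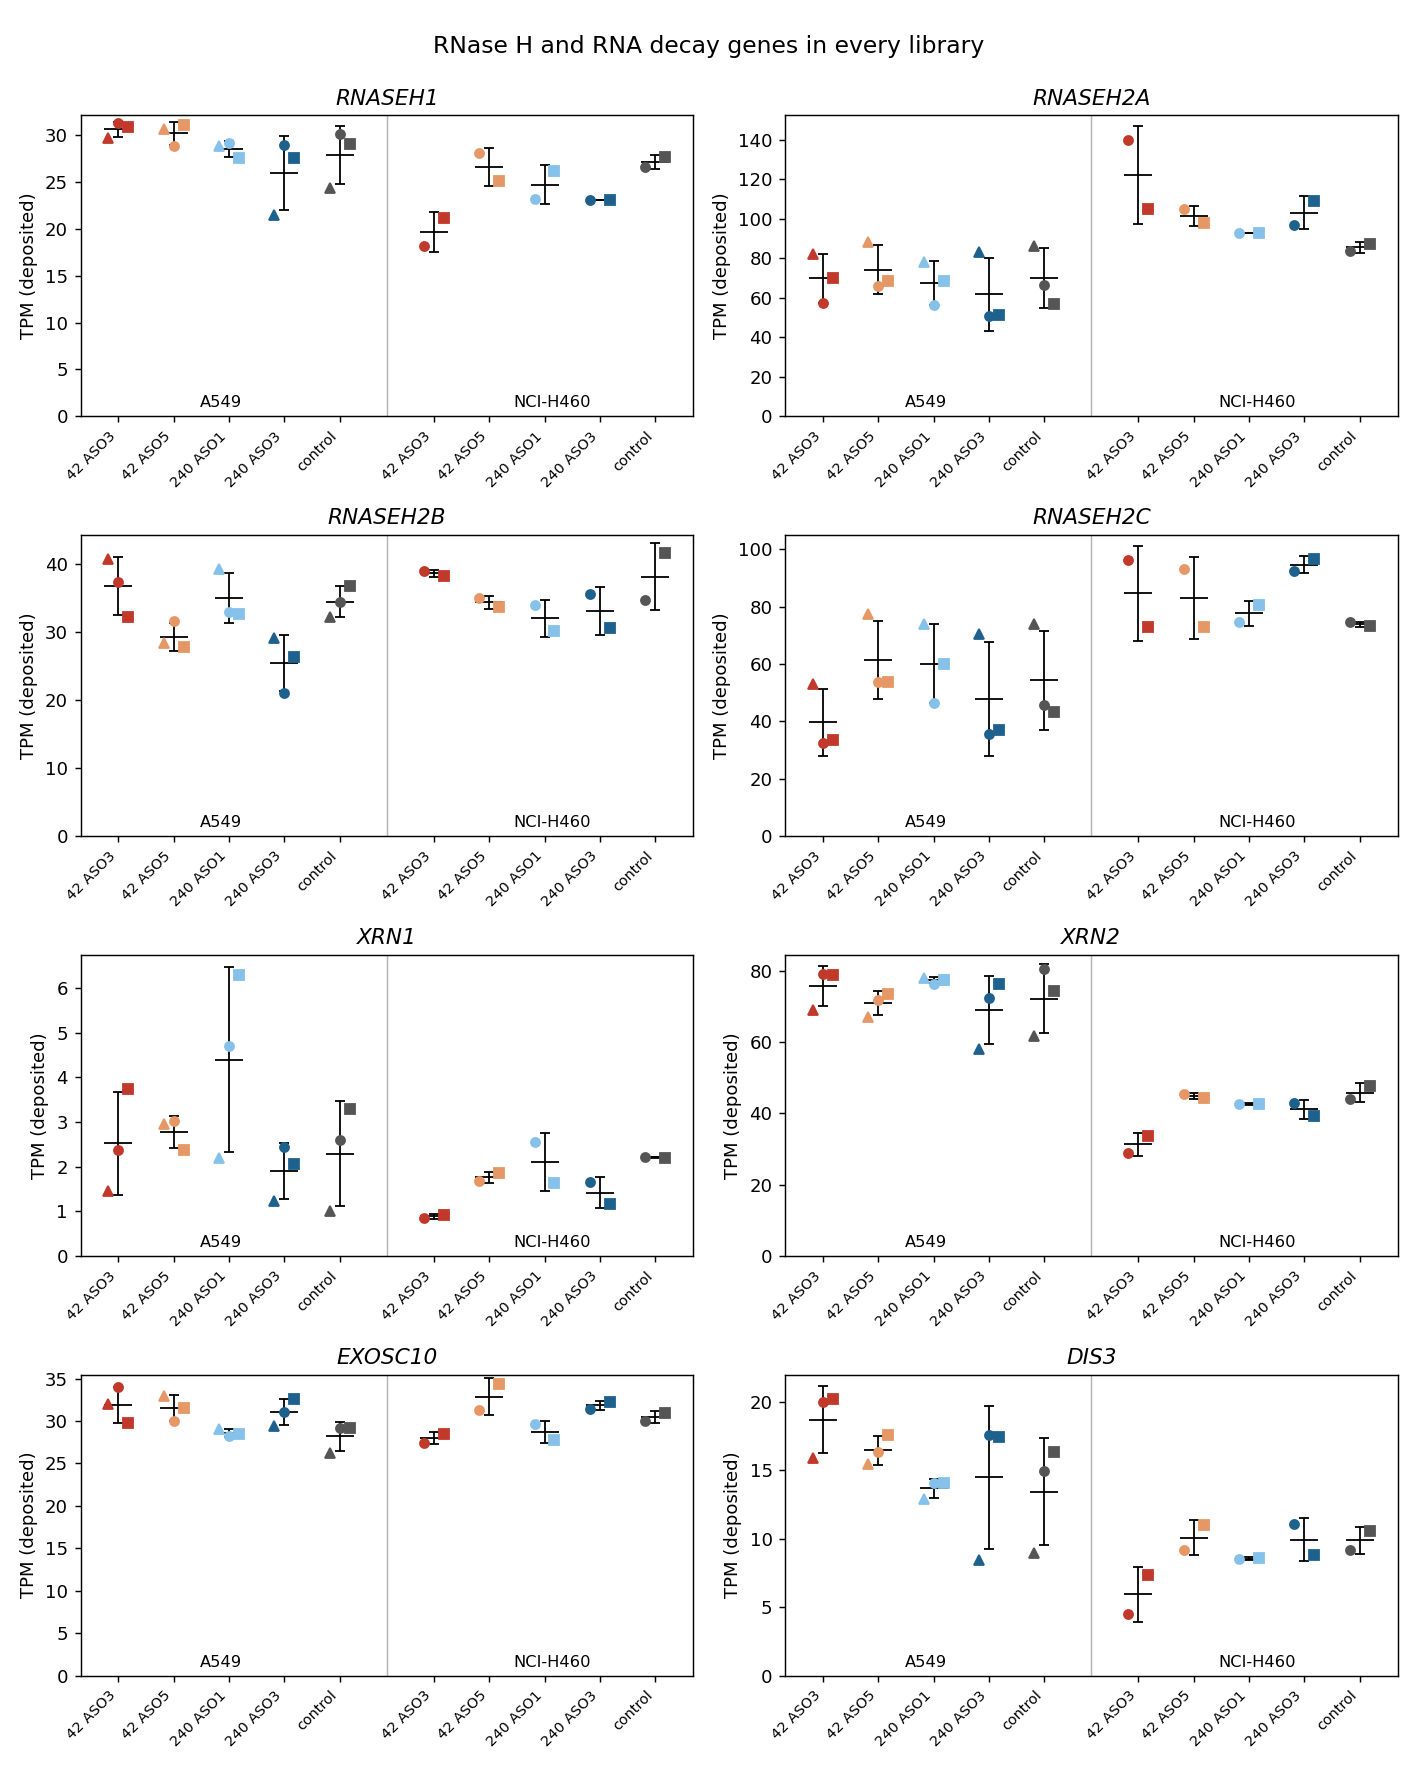
Deposited TPM of each gene (vertical axis, from 0) in every library, grouped by ASO on the horizontal axis, with A549 left of the line and NCI-H460 right. Points are libraries (triangle, circle and square for A549 numbers 3, 4 and 5, circle and square for NCI-H460 numbers 1 and 2), bars are the mean and SD (n = 3 or 2). The NCI-H460 42 ASO3 libraries are the lowest of their line for RNASEH1 (18.2 and 21.1 TPM), XRN1, XRN2 (29.0 and 33.6 TPM) and DIS3. The share of all genes for which they are the lowest was not counted.

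Between the lines, 1 member, XRN2, differed in the control libraries. For this comparison each library was rescaled to a sum of 1e6. XRN2, the nuclear 5′-to-3′ nuclease that also trims rRNA precursors and acts in transcription termination, was higher in A549 controls than in NCI-H460 controls (limma log2 difference 0.60, SE 0.18, Benjamini-Hochberg adjusted p = 0.0099). It was the 1 member called, where 52.3% of 14739 tested genes were called. RNASEH2A, the catalytic subunit of RNase H2, differed by -0.35 (SE 0.15, limma adjusted p = 0.0507) and RNASEH2C, a subunit that holds the complex together, by -0.53 (SE 0.22, adjusted p = 0.0528), both lower in A549 and neither past the threshold of 0.05. Without the A549 control library numbered 3 both passed (-0.47, adjusted p = 0.0134, and -0.73, adjusted p = 0.0097). The differences of RNASEH1 (-0.01), RNASEH2B (-0.18), XRN1 (-0.09), EXOSC10 (-0.15) and DIS3 (0.34) did not pass, with adjusted p of at least 0.258. Under median-of-ratios scaling, which moved the median of all genes to 0.00 where it was 0.17 after rescaling to 1e6, EXOSC10 (-0.33, adjusted p = 0.00175) and RNASEH2B (-0.36, adjusted p = 0.0464) were called lower. Over all ASO groups after the same rescaling, 1 member, RNASEH2A, had its 15 A549 libraries wholly below the 10 NCI-H460 libraries. Such a separation, in either direction, held for 30.6% of tested genes. The margin was narrow, at most 84.3 in A549 against at least 85.8 in NCI-H460. In the deposited TPM RNASEH2A overlapped (A549 up to 88.4, NCI-H460 from 83.7). There XRN2 lay wholly apart instead, from 58.1 TPM in A549 against at most 47.8 TPM in NCI-H460. The share of all genes that lay apart in the deposited TPM was not counted. After the rescaling XRN2 overlapped (A549 from 49.2, NCI-H460 up to 49.4). The XRN2 call was lost without the NCI-H460 control library numbered 1 (0.53, adjusted p = 0.0817).

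The main change was in NCI-H460 with candidate 42 ASO3, where 4 of the 8 genes fell and 1 rose. RNASEH1, XRN1, XRN2 and DIS3 were lower and RNASEH2A was higher, while RNASEH2B, RNASEH2C and EXOSC10 did not pass the test. This response was broad: 46% of 13774 tested genes were called in this comparison, 32.8% lower and 13.2% higher, so a count of 5 in 8 stands close to that background. The members are described gene by gene, and where a gene's 42 ASO3 and control libraries do not overlap, that held for 74.8% of tested genes with 2 libraries against 2. The share of all genes whose 42 ASO3 libraries lay beyond every other NCI-H460 library was not counted. In bulk RNA a lower level per cell and fewer cells of a kind cannot be told apart.

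RNASEH1 encodes RNase H1, the enzyme that RNase H-dependent ASOs recruit. It had 18.2 and 21.1 TPM in NCI-H460 42 ASO3 libraries, against 26.6 and 27.6 TPM in control libraries. The other ASO groups of the line held 28.1 and 25.2 TPM with 42 ASO5, 23.2 and 26.2 TPM with 240 ASO1, and 23.1 and 23.1 TPM with 240 ASO3. The 42 ASO3 libraries thus lay below every other NCI-H460 library, at a mean of 72.5% of control. The limma log2 fold change was -0.46 (SE 0.11, adjusted p = 0.0105), and the 95% interval ran from -0.71 to -0.20. The call was lost without the control library numbered 2 (-0.43, adjusted p = 0.0682). RNASEH1-AS1, the antisense gene that overlaps its start, had 37.0 and 31.5 TPM with 42 ASO3 and 35.4 and 36.2 TPM in controls, a difference that did not pass (-0.07, adjusted p = 0.641).

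Of the subunits of RNase H2, RNASEH2A was higher and the others did not pass the test. RNASEH2A had 140.0 and 105 TPM with 42 ASO3, against 83.7 and 87.3 TPM in control libraries, with 97.7 to 105 TPM for 42 ASO5, 92.6 TPM in both 240 ASO1 libraries and 97.1 to 109 TPM for 240 ASO3. The 42 ASO3 libraries did not overlap the controls, but the one numbered 2 lay within the range of the other ASO groups. RNASEH2A averaged 143% of control (log2 fold change 0.50, SE 0.13, limma adjusted p = 0.0142). Without the 42 ASO3 library numbered 1 its change was 0.29 (adjusted p = 0.0529), and the call was also lost without control library 1 (adjusted p = 0.0736) or 2 (adjusted p = 0.0555). RNASEH2B, a scaffold subunit, had 39.1 and 38.3 TPM with 42 ASO3 and 34.7 and 41.7 TPM in controls, and RNASEH2C had 96.3 and 72.8 TPM with 42 ASO3 and 74.5 and 73.2 TPM in controls. Their intervals ran from -0.25 to 0.30 and from -0.16 to 0.52 on the log2 scale. The ratio of RNASEH2A to RNASEH1 within a library, which does not depend on the scaling of the library, was 7.70 and 4.96 with 42 ASO3, against 3.15 and 3.16 in controls and 3.54 to 4.72 in the other ASO groups.

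The 5′-to-3′ nucleases were both lower. XRN2 had 29.0 and 33.6 TPM in 42 ASO3 libraries, against 43.9 and 47.8 TPM in control libraries, and between 39.2 and 45.5 TPM in the 6 libraries of the other ASOs. The 42 ASO3 libraries lay below all others, at 68.3% of control (log2 fold change -0.55, SE 0.10, limma adjusted p = 0.00314). XRN1 had 0.841 and 0.927 TPM with 42 ASO3, against 2.22 and 2.20 TPM in controls, and 1.17 to 2.56 TPM with the other ASOs. It averaged 40% of control in TPM, and on the log2(TPM + 0.5) scale, which understates changes of low genes, the fold change was -0.97 (SE 0.25, limma adjusted p = 0.0122). The call was lost without the 42 ASO3 library numbered 1 (-0.93, adjusted p = 0.0519), control library 1 (-0.97, adjusted p = 0.0578) or control library 2 (-0.97, adjusted p = 0.0607), while that of XRN2 was kept without any single library. At these levels XRN1 may rest on few reads, and TPM values keep no record of depth.

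Of the catalytic subunits of the nuclear exosome, DIS3 was lower and EXOSC10 did not pass the test. DIS3, which carries both an exoribonuclease and an endoribonuclease activity, had 4.53 and 7.35 TPM in 42 ASO3 libraries, against 9.16 and 10.6 TPM in controls, and 8.48 to 11.0 TPM with the other ASOs. The groups did not overlap, and the mean was 60.2% of control (log2 fold change -0.72, SE 0.21, limma adjusted p = 0.0222). Without the 42 ASO3 library numbered 1 the change of DIS3 was -0.40 (adjusted p = 0.126), and the call was also lost without control library 1 (adjusted p = 0.0533) or 2 (adjusted p = 0.122). EXOSC10, the exoribonuclease that is bound to the exosome in the nucleus, had 27.5 and 28.5 TPM with 42 ASO3, against 30.0 and 31.0 TPM in controls, a log2 fold change of -0.12 (95% interval -0.33 to 0.08) that did not pass (adjusted p = 0.295). The ratio of EXOSC10 to DIS3 was 6.07 and 3.87 with 42 ASO3 and 3.27 and 2.93 in controls. Of the 5 genes called, the 42 ASO3 library numbered 1 lay farther from the controls than the library numbered 2 in each.

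**Figure D2:**
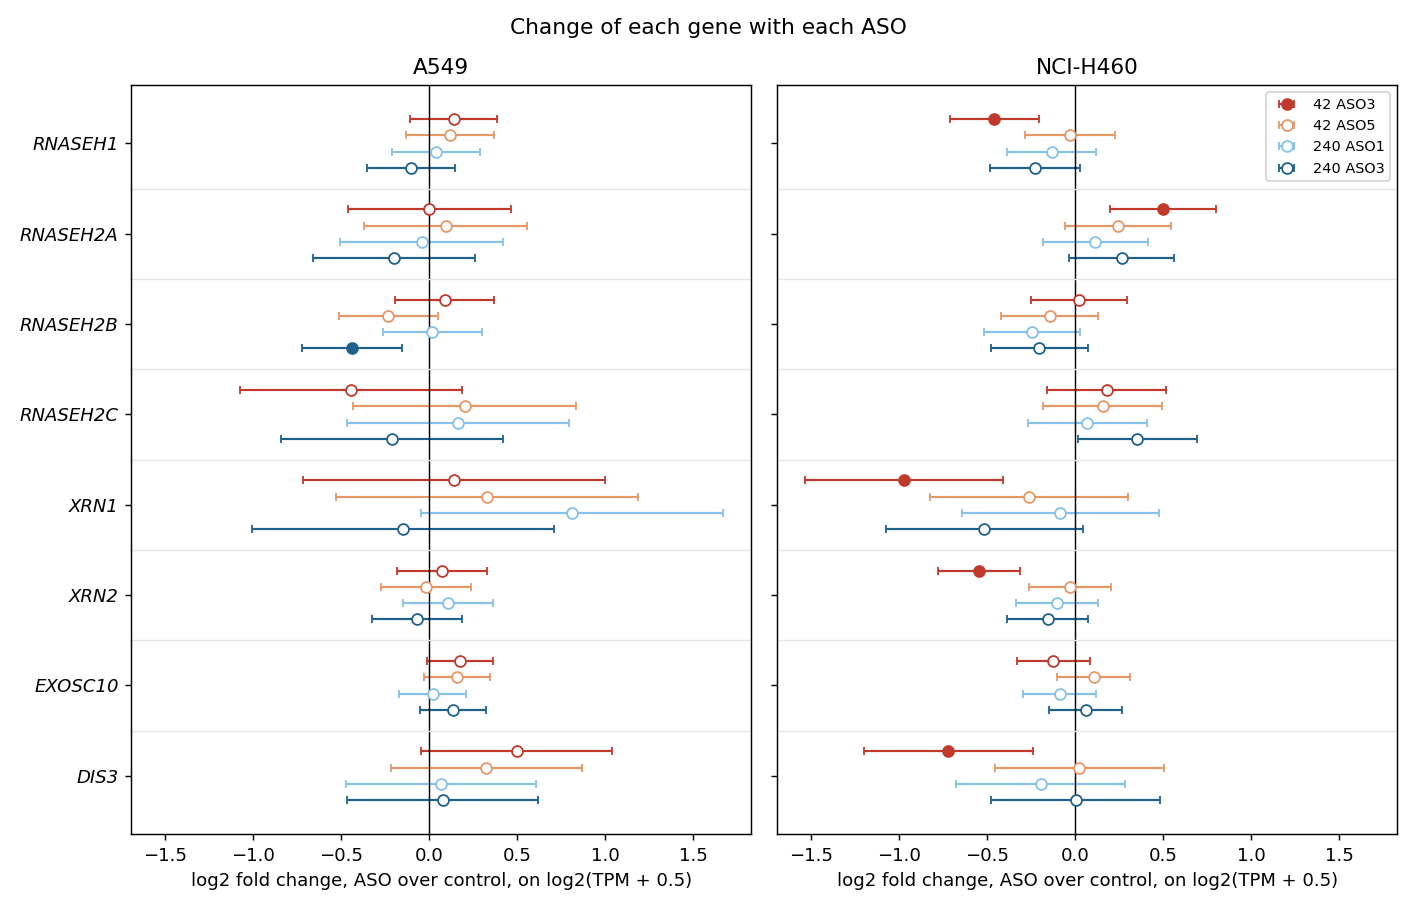
Log2 fold change of each gene, ASO over control, on log2(TPM + 0.5) (horizontal axis), for the 4 ASOs in A549 (left) and NCI-H460 (right). Points are limma estimates, bars their 95% intervals, and filled points passed an adjusted p of 0.05. Filled points are RNASEH2B with 240 ASO3 in A549 (-0.44) and RNASEH1, RNASEH2A, XRN1, XRN2 and DIS3 with 42 ASO3 in NCI-H460.

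Placed among all genes of that comparison, the called members were not extreme. The median log2 fold change of all tested genes was -0.20 in NCI-H460 with 42 ASO3 and that of the 8 members -0.29. RNASEH1 lay at the 35.3 percentile of all fold changes, XRN2 at 30.8, DIS3 at 22.6 and XRN1 at 13.2, and RNASEH2A at 89.1. The scaling of the table bears on these values, since median-of-ratios scaling moved the median of all genes to 0.01 and rescaling to a sum of 1e6 moved it to -0.34. Median-of-ratios factors were 0.870 and 0.916 in the 42 ASO3 libraries, against 1.04 and 1.05 in the controls. Of the genes called, 28.7% were higher with the deposited scaling, 18.1% after rescaling to 1e6 and 50.8% under median-of-ratios scaling. With median-of-ratios scaling RNASEH2A (0.73, adjusted p = 0.00508), XRN1 (-0.81, adjusted p = 0.0243) and XRN2 (-0.32, adjusted p = 0.0233) were called, while RNASEH1 stood at -0.24 (adjusted p = 0.101) and DIS3 at -0.51 (adjusted p = 0.061).

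**Figure D3:**
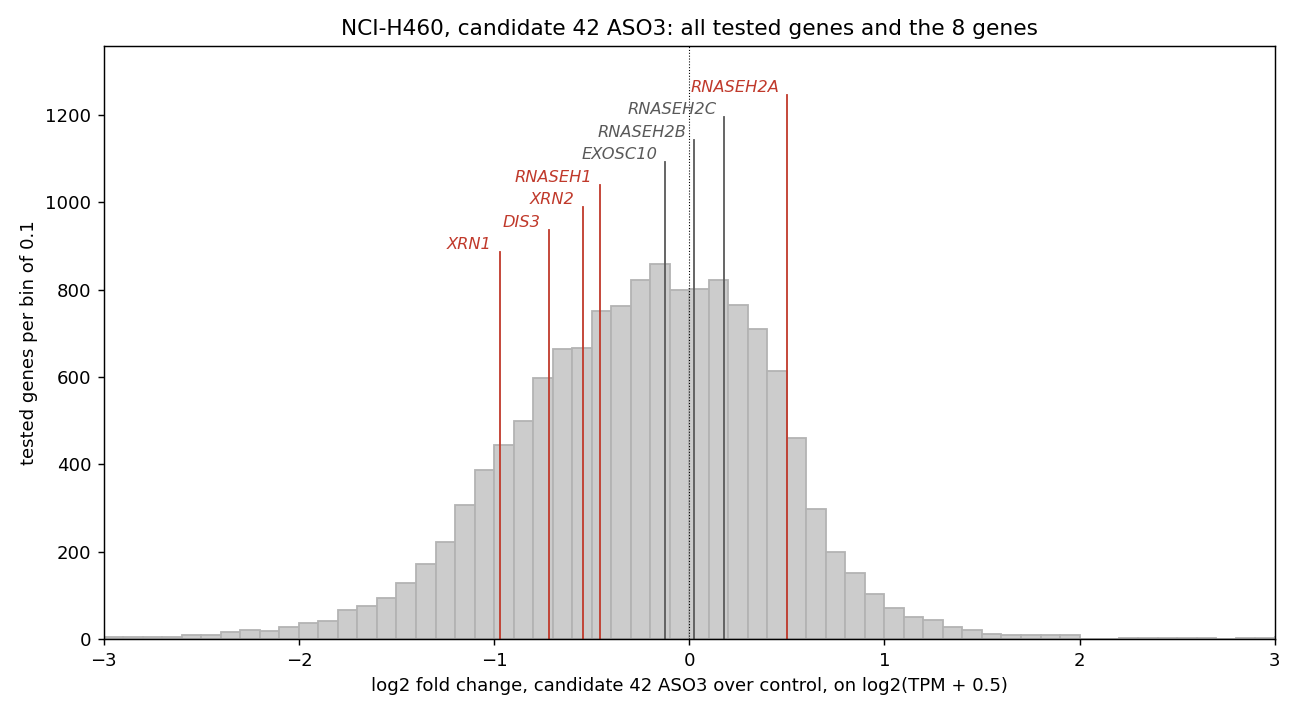
Histogram of the log2 fold changes of all 13774 genes tested in NCI-H460 with 42 ASO3 over control, from -3 to 3 in bins of 0.1 (horizontal axis), as tested genes per bin (vertical axis). Vertical lines mark the 8 members, red where called and grey where not. Red lines run from XRN1 at -0.97 to RNASEH2A at 0.50, within the body of the distribution.

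In the authors' deposited table of this comparison the q-value was under 0.05 for RNASEH1 (log2 -0.39), RNASEH2A (0.59), XRN2 (-0.48), DIS3 (-0.66) and EXOSC10 (-0.06, q = 0.041). The authors' deposited table gave XRN1 a log2 of -1.25 at q = 0.0519. The share of genes with a q-value under 0.05 in it was 49.3% of 18632 genes, a larger set than the 13774 tested by limma.

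With 42 ASO5, the other ASO against candidate 42, none of the 8 members was called by limma in NCI-H460, none had an unadjusted p under 0.05, and fold changes ran from -0.26 (XRN1) to 0.24 (RNASEH2A), where 0.508% of genes were called. Tested against each other, 42 ASO5 was higher than 42 ASO3 for RNASEH1 (log2 difference 0.43, SE 0.11, adjusted p = 0.0188), XRN2 (0.52, SE 0.10, adjusted p = 0.00604) and DIS3 (0.74, SE 0.21, adjusted p = 0.0257). That makes 3 of 8 members, all higher, where 33.3% of genes were called and 27.7% were higher. The RNASEH1 and DIS3 calls were lost without the 42 ASO3 library numbered 1 or either 42 ASO5 library (adjusted p of 0.0508 to 0.146). XRN1 differed by 0.71 (adjusted p = 0.0543) and RNASEH2A by -0.26 (adjusted p = 0.162). Under median-of-ratios scaling none of these 3 passed (XRN2 0.28, adjusted p = 0.0521), and RNASEH2A (-0.49, adjusted p = 0.0368) and RNASEH2B (-0.40, adjusted p = 0.0374) did, with 52.6% of calls higher in place of 83.1%.

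With the candidate 240 ASOs no member was called in NCI-H460. For 240 ASO1 no gene of the whole table was called by limma (0%, with 493 genes and 0 members at an unadjusted p under 0.05), and member fold changes ran from -0.25 to 0.11. For 240 ASO3, where 5.66% of genes were called, they ran from -0.51 for XRN1 (95% interval -1.07 to 0.05) to 0.35 for RNASEH2C. RNASEH2C had 92.5 and 96.6 TPM with 240 ASO3, against 74.5 and 73.2 TPM in controls, and was the 1 member with an unadjusted p under 0.05 (limma adjusted p = 0.193). The authors' deposited table gave RNASEH2C a log2 of 0.37 at q = 0.0377 there, where 6.91% of its genes had a q-value under 0.05. The limma call split over all genes was 46.8% higher with the deposited scaling and 34.1% after rescaling to 1e6. Between 240 ASO3 and 240 ASO1 no member was called, and 0 had an unadjusted limma p under 0.05, where 2.92% of genes were called. The 4 comparisons of a line share their control libraries.

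In A549, 1 of 32 tests against control was called. RNASEH2B had 29.2, 21.1 and 26.3 TPM with candidate 240 ASO3, against 32.2, 34.5 and 36.8 TPM in control libraries. It had 39.3, 33.0 and 32.7 TPM with 240 ASO1, 40.8, 37.3 and 32.3 TPM with 42 ASO3, and 28.4, 31.7 and 27.9 TPM with 42 ASO5. The 240 ASO3 libraries lay below all 3 controls, as did those of 42 ASO5, where 25.5% and 22.2% of genes did not overlap in either direction. With 240 ASO3 the mean was 74% of control (log2 fold change -0.44, SE 0.13, limma adjusted p = 0.0399), where 13.8% of 14740 tested genes were called and 7.82% were lower. Against 240 ASO1 the difference was -0.46 (SE 0.13, adjusted p = 0.0295), where 16.7% of genes were called. Single libraries decided the call against control: it was lost without control library 4 (-0.44, adjusted p = 0.101), control library 5 (-0.39, adjusted p = 0.125), 240 ASO3 library 4 (-0.31, adjusted p = 0.154) or 240 ASO3 library 5 (-0.46, adjusted p = 0.07), and at an adjusted p of 0.0507 to 0.0538 without any of 6 libraries of the other ASOs. The call against 240 ASO1 was lost without any of the 3 libraries of 240 ASO1 or without 240 ASO3 library 4 or 5 (adjusted p of 0.0509 to 0.115), and when only the groups compared were fitted (0.117). In the authors' deposited table RNASEH2B had q = 0.162. Its partners in the RNase H2 complex, RNASEH2A (-0.20) and RNASEH2C (-0.21), did not pass (adjusted p of 0.625 and 0.717).

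The other A549 comparisons held no called member. With 42 ASO3 fold changes ran from -0.44 for RNASEH2C (95% interval -1.07 to 0.19) to 0.50 for DIS3 (95% interval -0.04 to 1.04), where 10.1% of genes were called by limma, and no member had an unadjusted p under 0.05. DIS3 had 15.8, 20.0 and 20.2 TPM with 42 ASO3, against 8.97, 14.9 and 16.3 TPM in controls, ranges that overlapped (limma adjusted p = 0.255). The authors' deposited table gave DIS3 a log2 of 0.48 at q = 0.0452, where 11.3% of its genes had a q-value under 0.05. With 42 ASO5 fold changes ran from -0.23 for RNASEH2B to 0.33 for XRN1 and DIS3, where 3.82% of genes were called by limma. With 240 ASO1 no gene of the table was called (0%, with 267 genes and 0 members at an unadjusted p under 0.05), and XRN1 had the largest member change, 0.81 (95% interval -0.05 to 1.67), from 2.20, 4.69 and 6.30 TPM with 240 ASO1, against 1.00, 2.59 and 3.28 TPM in controls. EXOSC10 had 32.0, 34.0 and 29.8 TPM with 42 ASO3, 33.0, 30.0 and 31.6 TPM with 42 ASO5 and 29.4, 31.1 and 32.5 TPM with 240 ASO3, against 26.3, 29.2 and 29.2 TPM in controls. These 3 groups lay above the controls without overlap, as 27.6%, 22.2% and 25.5% of genes did in either direction, and none was called (fold changes 0.14 to 0.18, adjusted p of at least 0.251). Between 42 ASO5 and 42 ASO3 no A549 member was called, where 10.7% of genes were. Of the members, 2 had an unadjusted limma p under 0.05, RNASEH2B (-0.32) and RNASEH2C (0.64). With the library number as a replicate block RNASEH2C was called (limma adjusted p = 0.00122, against 0.198 without it). Whether the numbers pair these libraries is not settled.

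The A549 libraries also varied with their number, as described here for RNASEH2A, RNASEH2C, DIS3 and XRN1. The share of all tested genes that separated by number was not counted, so the pattern may not be particular to these genes. RNASEH2A had 78.2 to 88.4 TPM in the 5 libraries numbered 3, against 50.9 to 66.5 TPM in those numbered 4 and 51.3 to 69.9 TPM in those numbered 5. RNASEH2C had 53.1 to 77.2 TPM in number 3, 32.4 to 53.7 TPM in number 4 and 33.4 to 59.9 TPM in number 5. DIS3 ran the other way, at 8.47 to 15.8 TPM in number 3, 14.1 to 20.0 TPM in number 4 and 14.0 to 20.2 TPM in number 5, as did XRN1, whose means were 1.77, 3.02 and 3.55 TPM. Means were also lowest in number 3 for XRN2 (66.8, 76.0 and 76.1 TPM) and RNASEH1 (27.0, 29.7 and 29.2 TPM). What the number marks is not stated in the labels. With the libraries numbered 4 and 5 alone, 3 of the 32 A549 tests were called: RNASEH2B with 240 ASO3 (-0.59, adjusted p = 0.00813), RNASEH2C with 42 ASO3 (-0.42, adjusted p = 0.0244) and DIS3 with 42 ASO3 (0.35, adjusted p = 0.0175). That subset was chosen after the values were seen. For the candidate 240 groups the numbers paired the libraries, and with the number as a replicate block RNASEH2B with 240 ASO3 kept its call (-0.44, adjusted p = 0.0197). Between the candidate 240 ASOs the block added RNASEH2C (240 ASO3 minus 240 ASO1 -0.38, adjusted p = 0.0186, against 0.435 without it) and XRN1 (-0.96, adjusted p = 0.0181, against 0.123).

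**Figure D4:**
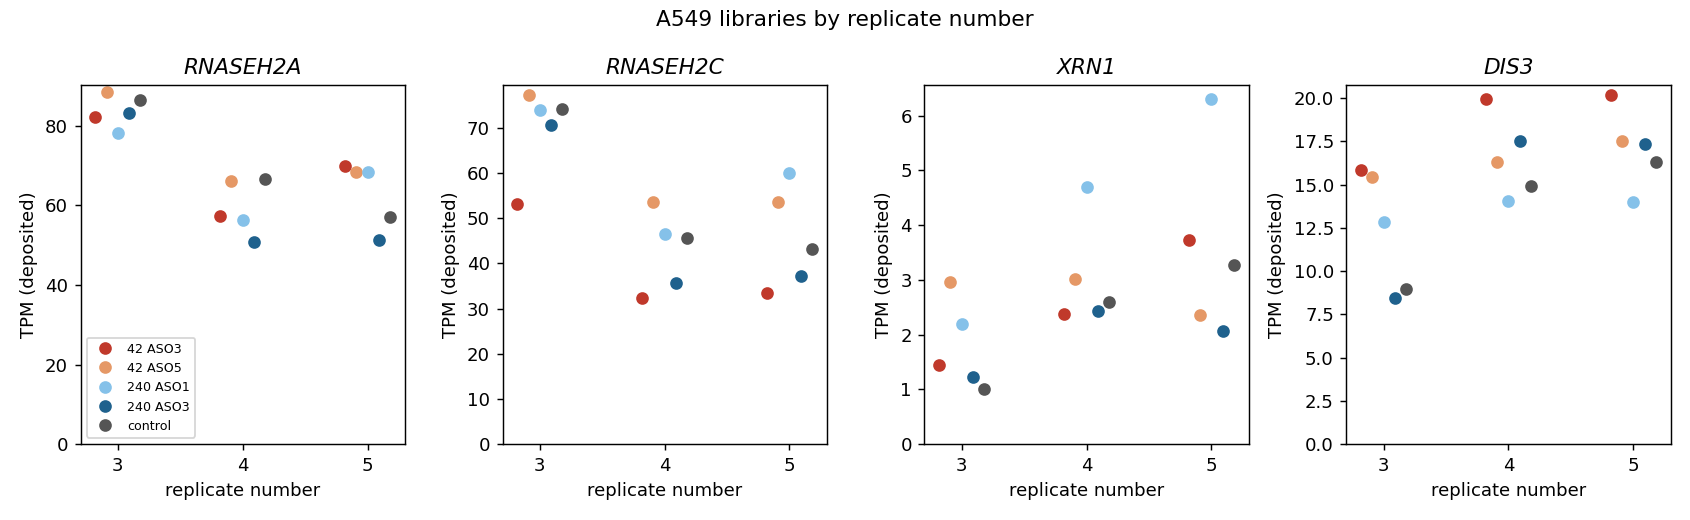
Deposited TPM (vertical axis, from 0) of RNASEH2A, RNASEH2C, XRN1 and DIS3 in the 15 A549 libraries, by replicate number (horizontal axis, names without an order) and coloured by ASO. Libraries numbered 3 hold the highest RNASEH2A values (78.2 to 88.4 TPM) and, for 240 ASO3 and the control, the lowest DIS3 values (8.47 and 8.97 TPM). The share of all genes that separated by number was not counted.

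The response to 42 ASO3 differed between the lines for 3 members. The fold change in A549 minus that in NCI-H460 was 0.60 for RNASEH1 (SE 0.17, limma interaction, adjusted p = 0.0212), 0.62 for XRN2 (SE 0.17, adjusted p = 0.0188) and 1.22 for DIS3 (SE 0.38, adjusted p = 0.0327), where 19.7% of 14769 genes were called and 15.5% were higher. In A549 these genes had fold changes of 0.14, 0.07 and 0.50 with 42 ASO3, against -0.46, -0.55 and -0.72 in NCI-H460. RNASEH2A (-0.50, adjusted p = 0.239) and XRN1 (1.11, adjusted p = 0.15), which were called in NCI-H460, did not pass the test of the difference. The XRN2 difference was lost without the NCI-H460 42 ASO3 library numbered 1 (0.52, adjusted p = 0.14) or control library 2 (0.56, adjusted p = 0.0823), as were those of RNASEH1 and DIS3, which were also lost without NCI-H460 control library 1 or A549 control library 3 (DIS3 also without A549 42 ASO3 library 4 or 5). The 3 differences missed the threshold under both other scalings, with adjusted p of 0.0523 to 0.0608 after rescaling to 1e6 and of 0.0538 to 0.0989 under median-of-ratios scaling, where 46.8% of calls over all genes were higher in place of 78.6%. Median-of-ratios scaling gave 0.34 for RNASEH1, 0.36 for XRN2 and 0.97 for DIS3. No member differed in its response to 42 ASO5, 240 ASO1 or 240 ASO3 by the same limma test, with 0 members at an unadjusted p under 0.05 and 0.0339%, 0% and 1.21% of genes called.

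Across the 10 groups, RNASEH1, XRN1, XRN2 and DIS3 had positive correlations with each other. Over group means of log2(TPM + 0.5) centred within each line, Pearson's r was 0.90 for RNASEH1 and XRN2, 0.85 for RNASEH1 and DIS3, 0.80 for XRN1 and XRN2, 0.79 for XRN2 and DIS3, 0.74 for RNASEH1 and XRN1 and 0.47 for XRN1 and DIS3, and EXOSC10 and DIS3 gave 0.82. RNASEH2A ran against them, at -0.68 with XRN2 and -0.47 with RNASEH1, and r was 0.40 with RNASEH2C and 0.33 with RNASEH2B, its partners in RNase H2. The groups share libraries' scaling, and 1 of the 10 points is the NCI-H460 42 ASO3 group. RNASEH1, XRN1, XRN2 and DIS3 are the members called lower in that group, so positive r among them was in part fixed in advance. Among 12760 genes tested in both lines, genes most like RNASEH1 by this measure were TET3 (0.99), VPS35 (0.99) and ABL2 (0.98), and those most like XRN2 were EIF4G2, CHEK1 and TMPO (0.99 each). DIS3 was most like BTBD3 (0.99), CRLF3 and PPP1R2 (0.98 each), XRN1 like FAM111B (0.95) and TMEM116 (0.93), RNASEH2A like INTS1 (0.98), MRPS34 (0.97) and SNAI1 (0.95), and RNASEH2B like NASP (0.97), EXOSC7 and AC239868.1 (0.94 each).

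Other genes of RNA decay were called in both directions in NCI-H460 with 42 ASO3, to be read beside 32.8% of all genes called lower and 13.2% higher. Of the 9 core exosome genes, 2 rose and 2 fell, with a median log2 fold change of 0.13, against -0.20 over all genes: EXOSC4 (0.69, adjusted p = 0.00464) and EXOSC5 (0.36) rose, and EXOSC2 (-0.48, adjusted p = 0.0024) and EXOSC8 (-0.31) fell. Of 15 nuclear cofactors that bring RNA to the exosome, 8 fell and 1 rose (median -0.36), led by MTREX, the helicase that feeds RNA into the nuclear exosome (-1.04, adjusted p = 0.000577), TENT4B, a poly(A) polymerase that tags RNA for decay (-0.94), ZFC3H1 (-0.69) and the cap-binding gene NCBP1 (-0.59). Of 16 genes in a list that joins XRN2 partners with transcription termination genes, 7 fell and 1 rose (median -0.28). PAXBP1 (-1.12), CDKN2AIP (-0.76) and CPSF2 (-0.72) were among those lower, and CPSF1 was higher (0.82). Whether PAXBP1 and RAI1 of that list work with XRN2 was not checked. Of 7 genes for the cytoplasmic exosome and 3′ decay, 4 fell and none rose, among them TTC37, a scaffold of the SKI complex (-1.19), DIS3L, the cytoplasmic relative of DIS3 (-1.0, adjusted p = 0.000557), HBS1L (-0.50) and ERI1 (-0.41).

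In the same comparison decapping genes were called in both directions, while the called deadenylase and nonsense-mediated decay genes were all lower. Of 16 genes for poly(A)-shortening deadenylase complexes and their partners, not all of them enzymes, 8 fell and none rose (median -0.34). The largest falls were CNOT7 (-1.43), CNOT6L (-1.33), PAN3 (-0.89) and CNOT6 (-0.87). Of 17 decapping and 5′ decay genes, 4 fell and 4 rose (median 0.07), with LSM14A (-0.83), DDX6 (-0.70) and DCP1A (-0.60) lower and DCPS, the scavenger decapping enzyme, higher (0.55). Of 10 nonsense-mediated decay genes, 4 fell and none rose (median -0.19), among them SMG6 (-0.98), UPF2 (-0.93) and SMG1 (-0.75). Of 15 genes that handle RNA-DNA hybrids, 4 fell and none rose (median -0.03), among them SRSF1 (-1.43), DDX5 (-0.89) and TOP1 (-0.59). Of 28 genes for proteins that bind ASOs or work with RNase H1, 8 fell and 2 rose (median -0.10), with PSPC1 (-0.77), LRPPRC (-0.69), RPA1 (-0.61) and XRCC5 (-0.55) lower.

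**Figure D5:**
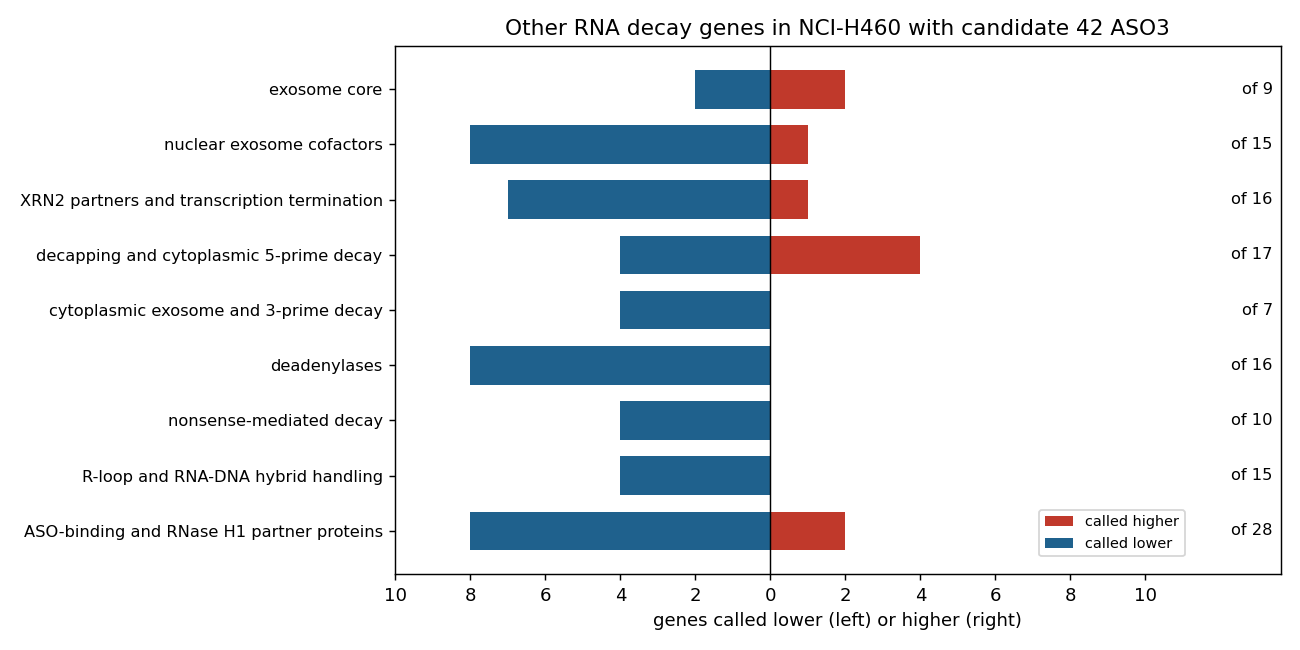
Number of genes called lower (left of 0) and higher (right of 0) in NCI-H460 with 42 ASO3 over control (horizontal axis), for 9 lists of RNA decay and ASO-handling genes (vertical axis), with the number tested at the right. Among the longer lists, nuclear exosome cofactors (8 of 15) and the deadenylase list (8 of 16) hold the most genes called lower for their size. The joint list of XRN2 partners and transcription termination genes (7 of 16) comes next, beside 32.8% of all genes. The short list of cytoplasmic exosome and 3′ decay genes holds a larger share called lower than any of these. Under median-of-ratios scaling 22.9% of all genes were called lower, and the lists were not counted.

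In A549 a few of these genes had larger fold changes than any member. With 240 ASO3, EDC3, a decapping enhancer (-1.85), DIS3L2, a cytoplasmic 3′ exoribonuclease (-1.39, SE 0.15, adjusted p = 3.85e-05), and DCPS (-1.36) fell, and 1 of 17 decapping genes rose and 2 fell, where 13.8% of all genes were called and 7.82% were lower. DIS3L2 also fell in A549 with 42 ASO5 (-0.75, adjusted p = 0.0128) and in NCI-H460 with 240 ASO3 (-0.65, adjusted p = 0.0242), where EDC3 fell as well (-0.88, adjusted p = 0.00476). With 42 ASO3, SMG6, the endonuclease of nonsense-mediated decay, fell in A549 (-2.01) as in NCI-H460. ZCCHC7, a cofactor of the nuclear exosome, fell in A549 with 42 ASO3 (-0.80) and 42 ASO5 (-1.42). In each of these A549 comparisons, where 10.1% (42 ASO3), 3.82% (42 ASO5) and 13.8% (240 ASO3) of all genes were called, at most 1 of the 15 nuclear cofactors and 1 of the 9 core exosome genes was called.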

How the data were processed

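RNA was sequenced from 25 libraries of A549 and NCI-H460 cells, in 5 ASO groups per line. Per the submitters' processing notes, kallisto, sleuth 0.30 and the hg38 build were used. The sources used here do not give the annotation release. The authors deposited a signal table of TPM per gene name, whose columns sum to 924350 to 1179224 and so had been rescaled between libraries, by a method not given in the sources used here. Per the file headers, the authors also deposited log2 fold changes with q-values, each ASO set against its line's control. These cover 18424 to 18930 genes per comparison. TPM keeps no read counts, so depth is unknown and no counting interval is given.

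Fold changes were computed with R 4.3.3 and limma 3.58.1 on log2(TPM + 0.5), with a group mean per ASO, all 5 groups of a line in a fit, genes of a mean of at least 1 TPM, a trended prior and two-sided tests with Benjamini-Hochberg adjustment over all genes tested (14740 in A549, 13774 in NCI-H460, 14769 for differences between lines). Genes with an adjusted p below 0.05 were called. Levels were compared between lines after rescaling each library to a sum of 1e6. No member was dropped and no value imputed. The fits were tested on simulated data with 200 changed genes. Among the 14740 genes of A549, 18% of changes of 0.5 and 68% of changes of 1 (log2) were recovered, with 2 false calls. Among the 13774 of NCI-H460 the shares were 9% and 59%, with 4 false calls. In the real data 46% of genes were called in NCI-H460 with 42 ASO3. The adjustment depends on the share of changed genes, so the simulated recovery does not describe that comparison. The simulated libraries varied independently, with no shared effect of library number or scaling. The simulated false calls therefore do not cover such effects.

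The members and the gene lists were chosen with earlier results of these data known. All 8 members are named in each comparison. Of other genes, at most the 4 called genes of a list with the largest absolute log2 fold change in a comparison are named. Same-numbered libraries were compared by the correlation of their deviations from the group means over genes: in A549 it was 0.17 to 0.41 for 240 ASO1 and the control and 0.28 to 0.56 for 240 ASO3 and the control, over 0.1 in every pair, so those numbers were taken to pair the libraries. Alternatives were another pseudocount (0.1 or 1), no filter, 2 other scalings, a fit of only the groups compared, a replicate block, and leaving out each library. GENCODE 29 matched 91.8% of gene names. Upstream sequences came from RefSeq. A few genes that these rules name are not reported here.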

Additional observations from a re-analysis of the deposited data

Results flagged for a closer look

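The response to candidate 42 ASO3 differed between the lines by a limma interaction test for RNASEH1, XRN2 and DIS3. RNASEH1 had a fold change of 0.14 in A549 and -0.46 in NCI-H460 (log2), a difference of 0.60 (SE 0.17, adjusted p = 0.0212). XRN2 had 0.07 in A549 and -0.55 in NCI-H460, a difference of 0.62 (SE 0.17, adjusted p = 0.0188). DIS3 had 0.50 in A549 and -0.72 in NCI-H460, a difference of 1.22 (SE 0.38, adjusted p = 0.0327). Over all genes 19.7% were called in this test, 15.5% higher. All 3 differences missed the threshold after rescaling to a sum of 1e6 and under median-of-ratios scaling, where RNASEH1 stood at 0.34 (adjusted p = 0.0989), XRN2 at 0.36 (adjusted p = 0.0796) and DIS3 at 0.97 (adjusted p = 0.0538). AC107959.3, the RNA taken as candidate 42, stood at 8.55% of control in A549 and 30.3% in NCI-H460 with this ASO, and its part in these differences was not tested.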

How the results depend on the processing

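Of 136 member results 14 were called, and none of them changed sign under any alternative run. XRN2 in NCI-H460 with 42 ASO3 was called in all 17 alternatives (-0.70 to -0.32). In A549 the 1 member called against control became 0 with no filter, 0 under median-of-ratios scaling, 0 when only the groups compared were fitted, 2 with the replicate block (RNASEH2C with 42 ASO3 added, -0.44, adjusted p = 0.0114), 3 with libraries numbered 4 and 5 alone, and 0 to 1 leaving out single libraries. In NCI-H460 the 5 became 3 with no filter, 3 under median-of-ratios scaling, 2 with only the groups compared, 5 with the block and 1 to 6 leaving out single libraries. Between the ASOs of a candidate the 4 became 2 with no filter, 0 with only the groups compared, 7 with the block, 8 with numbers 4 and 5 alone and 2 to 5 leaving out single libraries. The 3 differences between the lines became 0 under both other scalings, 7 with the block, 5 with numbers 4 and 5 alone and 0 to 3 leaving out single libraries. The line contrast of 1 became 3 under median-of-ratios scaling, 4 with numbers 4 and 5 alone and 0 to 3 leaving out single libraries. The cause was not tested, except that fewer groups leave fewer libraries to estimate the spread. Of 122 results not called, 51 changed sign under some alternative, and 29 of 2750 alternative values were called. The candidate 42 groups in A549 missed the pairing rule of over 0.1 in every pair. Their correlations ran from 0.09 to 0.39 for 42 ASO3 and from 0.02 to 0.32 for 42 ASO5. NCI-H460 has only 2 pairs per ASO. Whether the numbers pair the libraries of these groups is therefore not settled. Over all genes, the calls for A549 42 ASO3 were 1482, and 3112 with the block or 762 with only the groups compared. They were 563, 1533 and 119 for A549 42 ASO5, 2036, 3696 and 665 for A549 240 ASO3, and 6332, 6372 and 4088 for NCI-H460 42 ASO3. NCI-H460 240 ASO3 had 780, and 76 to 1977 leaving out single libraries, and the 42 ASO3 difference between lines 2909, 5638 with the block and 275 to 4138 leaving out single libraries. Depth is unknown, which limits XRN1 most.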
